A study of Caenorhabditis elegans with 12 samples.

Results

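The gene set described here holds 35 *C. elegans* genes. They build germ granules or control maternal mRNA in the germline and the oocyte, except *glp-1*, a Notch receptor gene itself under translational control. They were chosen by name, by a rule that uses no measured value but was set with earlier results of these data known. All 35 were found among the 46739 features of the expression table, and all 35 passed the minimum for testing (at least 0.5 RPKM in at least 4 libraries), which 13161 genes passed. RPKM is a read count divided by transcript length and by the mapped reads of the library, so levels can be compared between genes of different length.

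In the worm, most mRNA that the early embryo uses is made in the germline and stored in the oocyte, where RNA-binding proteins decide when each message is translated. P granules are germline condensates of RNA and protein, built by PGL proteins and Vasa-like helicases, and the cytoplasm around them holds repressors and activators that act mostly through sequences in the untranslated tails of mRNAs. PUF, STAR, KH and CCCH zinc finger proteins each bind their own short motifs, and a cytoplasmic poly(A) polymerase, a decapping-linked helicase and cap-binding factors carry out the decision.

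The study set dopamine left in the cytosol, for want of packaging, apart from reduced dopamine release, which RNAi against dopamine synthesis was to mimic. RNA-seq was performed on 3 groups of 4 libraries each, all from whole day 1 adults of the strain PMD216. Worms in the first group were raised on bacteria expressing RNAi against *cat-1*, the vesicular monoamine transporter, those in the second on RNAi against *cat-2*, tyrosine hydroxylase, and those in the third on the empty vector (EV). By its labels the strain carries *rrf-3(b26)* and *rde-1(ne219)*, a dat-1p::GFP reporter and a dat-1p::sid1-SL2-rde-1 transgene, so that the *dat-1* promoter restores RNAi in dopaminergic neurons, and RNAi was not meant to act in the germline. The study's methods add *fem-1(hc17)*, *eri-1(mg366)* and *lin-15B(n744)*, which all 3 groups share. Worms with *fem-1(hc17)* make no sperm at the restrictive temperature, and loss of *lin-15B* is known to let P granule genes be expressed outside the germline, and RNA of whole worms does not tell the tissues apart. The methods give a raised growth temperature for temperature-restrictive strains, to avoid progeny, in the protocol for trauma, and do not say whether the worms sequenced here were raised by it. Each library pooled many worms, and the replicates are labelled as biological ones without a statement of what a shared number means.

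The RPKM values rest on 18765779 to 21493743 mapped reads per library. Libraries labelled *cat-1* RNAi averaged 0.693 ± 0.56 RPKM of *cat-1* itself, against 0.103 ± 0.0423 RPKM in EV, and libraries labelled *cat-2* RNAi averaged 1.16 ± 0.529 RPKM of *cat-2*, against 0.141 ± 0.0449 RPKM in EV (SD, n = 4 each). Both values go against what the labels name. Whether reads of the RNAi trigger enter them was not tested, so they are not a measure of knockdown, and *cat-1* RNAi libraries and *cat-2* RNAi libraries mean throughout the libraries so labelled, in every direction given. The worms were checked for the cells that carry these genes. Markers of oocytes and yolk uptake summed to 4925 to 5144 RPKM over 9 genes in the *cat-1* RNAi libraries, 4973 to 5239 in the *cat-2* RNAi libraries and 5056 to 5498 in EV, and 20 genes of meiotic prophase to 999 to 1064, 1038 to 1119 and 1007 to 1086 RPKM in the same groups. Sperm markers were near 0. All 42 that were found summed to 35.1 to 55.8, 23.4 to 56.5 and 40.1 to 49.1 RPKM in the same groups, 13 of the 42 averaged under 0.5 RPKM, and 1 (*msp-74*) was listed at 0 in all 12 libraries. *cat-2* RNAi library 2 stood apart from the rest, with a limma quality weight of 0.331 against 0.629 to 1.54 in the other 11 libraries (limma gives a low weight to a library far from its group). EV library 2 stood apart in body wall muscle markers (8 genes), which summed to 692 RPKM in it, against 386 to 438 RPKM in the other 11 libraries, and without it the members' median log2 fold change below was -0.054 for *cat-1* RNAi against EV and 0.0040 for *cat-2* RNAi against EV.

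These mRNAs were abundant, and the median member's highest library was 1.19 times its lowest. The median member averaged 196 RPKM over the 12 libraries, against 12.6 RPKM for the median tested gene, and 28 of the 35 averaged at least 100 RPKM. By mean level 25 of the 35 were among the top 1000 tested genes. The members took 1.80% to 1.95% of mapped reads in the *cat-1* RNAi libraries, 1.86% to 1.98% in the *cat-2* RNAi libraries and 1.87% to 1.94% in EV. The widest range between libraries was that of the eIF4E isoform *ife-1*, whose highest library was 1.54 times its lowest, and the narrowest was that of *mex-3*, at 1.10 times. Within groups the SD on the log2(RPKM + 0.5) scale had a median of 0.073 over members and 0.091 over the 7267 tested genes at least as high as the lowest member. Those 7267 genes were not matched in level to the members. Counting error is small here, since 33 of the 35 had over 1000 reads in every library and the lowest count of any member in a library was 346.

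**Figure D1:**
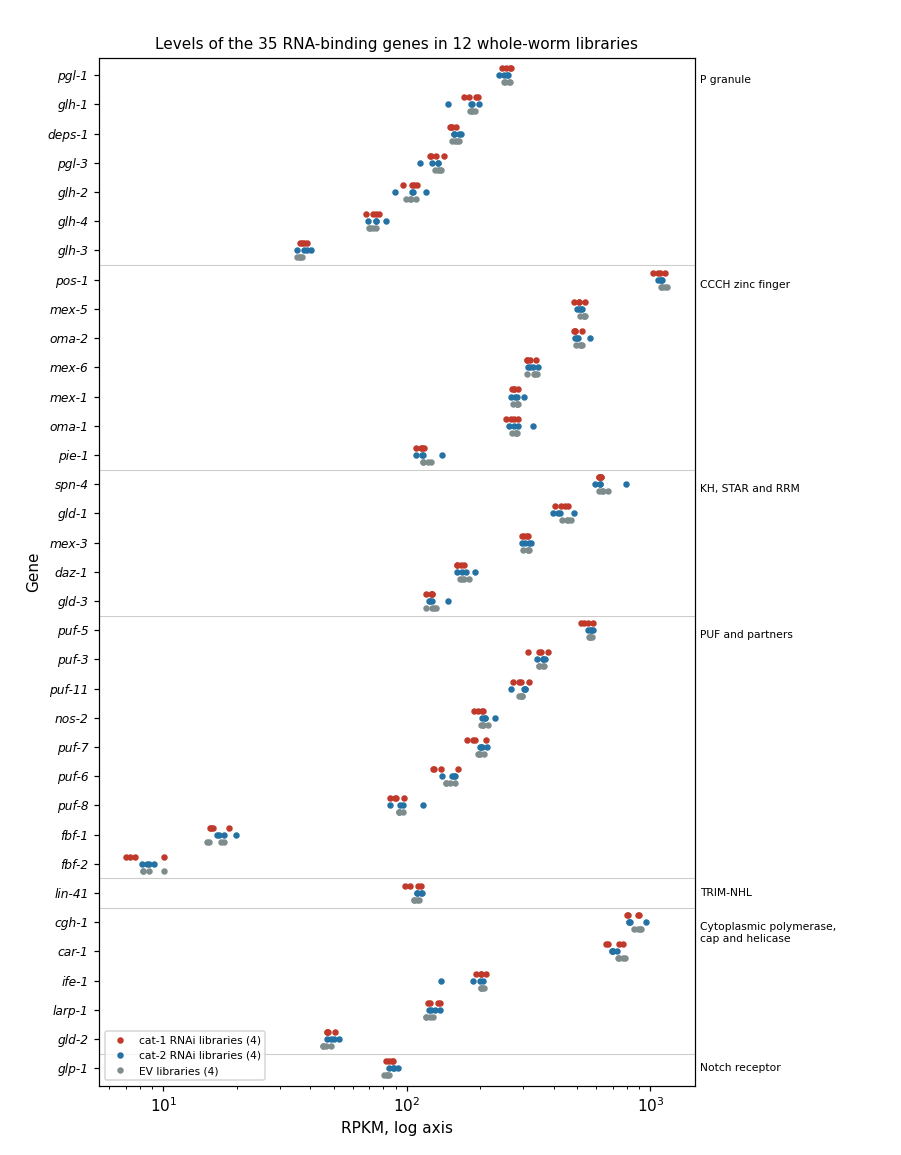
RPKM (log axis) of the 35 genes in each of 12 libraries, with 1 point per library, genes grouped by role and sorted by mean level within a role, and colours for the *cat-1* RNAi, *cat-2* RNAi and EV libraries. *pos-1* sits at the top, at 1022 to 1175 RPKM, *fbf-2* at the bottom, at 7.03 to 10.1 RPKM, and the colours lie on top of each other for most genes.

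Among P granule components the highest was *pgl-1*, which encodes a core scaffold protein of the granule. Its level was 245, 256, 266 and 269 RPKM in the *cat-1* RNAi libraries, 259, 239, 258 and 251 RPKM in the *cat-2* RNAi libraries and 265, 253, 262 and 252 RPKM in the EV libraries. These groups overlap throughout, and the lowest value is that of the *cat-2* RNAi library 2. Its paralogue *pgl-3* averaged 131 RPKM and *deps-1*, needed for P granule assembly, 158 RPKM. The 4 Vasa-like DEAD-box helicases fell in the order *glh-1* (183 RPKM), *glh-2* (104.4 RPKM), *glh-4* (73.3 RPKM) and *glh-3* (37.3 RPKM), each a mean over 12 libraries. *glh-1* was at 172, 179.5, 195 and 191 RPKM in the *cat-1* RNAi libraries, 184, 147, 197 and 184 RPKM in the *cat-2* RNAi libraries and 189.9, 186, 182 and 185 RPKM in the EV libraries. The *cat-2* RNAi libraries hold both its lowest and its highest value.

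The CCCH zinc finger genes were the largest share of the set by summed level, at 2973 to 3314 RPKM per library over 7 genes. *pos-1*, a maternal regulator of posterior cell fates, was the highest of all 35. It reached 1022, 1099, 1147 and 1078 RPKM in the *cat-1* RNAi libraries, 1109, 1113, 1079 and 1100.0 RPKM in the *cat-2* RNAi libraries and 1149, 1103, 1175 and 1117 RPKM in the EV libraries. Its lowest value was in a *cat-1* RNAi library and its highest in an EV library, with overlap between all groups. The polarity gene *mex-5*, whose protein clears germline proteins from the anterior of the zygote, had 507, 484, 537 and 509.5 RPKM in the *cat-1* RNAi libraries, 518, 522, 500.4 and 511 RPKM in the *cat-2* RNAi libraries and 537, 516, 535 and 533 RPKM in the EV libraries. The 3 groups overlap again. Its partner *mex-6* averaged 326 RPKM. The oocyte maturation genes *oma-2* and *oma-1*, which act redundantly, averaged 508 and 279 RPKM, *mex-1* averaged 280.2 RPKM, and *pie-1*, which keeps transcription off in germline blastomeres, was lowest of the class at 118 RPKM.

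Of the genes with STAR, KH or RRM domains, *spn-4*, an RRM protein of the early embryo, was highest. It was at 625, 612, 629 and 612 RPKM in the *cat-1* RNAi libraries, 623, 791, 591 and 620.1 RPKM in the *cat-2* RNAi libraries and 632, 612, 667 and 641 RPKM in the EV libraries. All libraries but *cat-2* RNAi 2, at 791 RPKM, lie between 591 and 667 RPKM. *gld-1*, the STAR protein that represses many oocyte messages, was at 429, 405, 458 and 446 RPKM in the *cat-1* RNAi libraries, 427, 487, 399.8 and 419 RPKM in the *cat-2* RNAi libraries and 458, 435, 455 and 469.9 RPKM in the EV libraries, with overlap between the groups. The KH gene *mex-3* averaged 309 RPKM, the DAZ homologue *daz-1* 169.6 RPKM and *gld-3*, a Bicaudal-C homologue that binds the poly(A) polymerase GLD-2, 127 RPKM.

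As a ratio of the highest to the lowest mean, PUF genes spanned the widest range of levels. The oocyte genes *puf-5* (561 RPKM), *puf-3* (355 RPKM), *puf-11* (294 RPKM), *puf-7* (199 RPKM) and *puf-6* (147 RPKM) all stood far above *fbf-1* (16.9 RPKM) and *fbf-2* (8.49 RPKM), the repressors that keep germline stem cells undifferentiated. *puf-8*, a Pumilio homologue, averaged 94.1 RPKM, and *nos-2*, a maternal Nanos homologue, 206 RPKM. *puf-5* was at 518, 533, 579 and 554 RPKM in the *cat-1* RNAi libraries, 582, 556, 572 and 572 RPKM in the *cat-2* RNAi libraries and 574, 562, 566 and 559.9 RPKM in the EV libraries, with 3 of the 4 *cat-1* RNAi libraries below every library of the other groups. The pairs *puf-3* and *puf-11*, *puf-6* and *puf-7*, and *fbf-1* and *fbf-2* are close in sequence. How reads that fit both copies were assigned is not given in the sources used here, so the split within each pair is uncertain.

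The effectors of translation and storage were led by *cgh-1*, a DDX6 helicase, and *car-1*, an Lsm14 protein that works with it. *cgh-1* was at 809.8, 805, 896 and 890.0 RPKM in the *cat-1* RNAi libraries, 820.3, 959.8, 814 and 813 RPKM in the *cat-2* RNAi libraries and 888, 859, 915 and 904 RPKM in the EV libraries. *car-1* was at 666, 659.6, 775 and 745 RPKM in the *cat-1* RNAi libraries, 696, 728, 704 and 696 RPKM in the *cat-2* RNAi libraries and 745, 736, 770.4 and 783 RPKM in the EV libraries. For both genes 2 *cat-1* RNAi libraries were below every EV library and 2 were not. The eIF4E isoform *ife-1*, which associates with P granules, averaged 196 RPKM, the La-related gene *larp-1* 127 RPKM and the cytoplasmic poly(A) polymerase gene *gld-2* 48.0 RPKM. The TRIM-NHL gene *lin-41*, which keeps oocytes from maturing early, was at 103, 98.6, 114 and 111 RPKM in the *cat-1* RNAi libraries, 110.3, 116, 109.8 and 115 RPKM in the *cat-2* RNAi libraries and 112, 107, 107 and 109.8 RPKM in the EV libraries, and *glp-1*, the Notch receptor of germline stem cells and itself under translational control by several proteins of the set, averaged 85.2 RPKM.

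Along the whole order of levels, from *pos-1* down to *fbf-2*, 9 of 34 neighbouring pairs had ranges over 12 libraries that did not touch. These are the steps below *pos-1*, *cgh-1*, *spn-4*, *gld-1*, *pgl-1*, *glh-4*, *gld-2*, *glh-3* and *fbf-1*. The other 25 pairs overlapped, although 16 of the 34 pairs kept their order in each of the 12 libraries. *puf-7* over *ife-1* held in 4 of 12 libraries and *gld-3* over *larp-1* in 7, so those neighbours do not differ beyond their spread.

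Ratios within pairs of related genes had ranges of their own. *oma-2* was 1.71 to 1.92 times *oma-1* over the 12 libraries, *mex-5* 1.51 to 1.65 times *mex-6*, *pgl-1* 1.82 to 2.12 times *pgl-3*, *glh-1* 1.64 to 1.86 times *glh-2* and *cgh-1* 1.155 to 1.32 times *car-1*. *puf-7* was 1.29 to 1.44 times *puf-6*, *puf-3* 1.16 to 1.28 times *puf-11* and *gld-3* 2.51 to 2.90 times *gld-2*. The widest range was that of *fbf-1* over *fbf-2*, both at low levels, at 1.71 to 2.32 times. The *cgh-1* to *car-1* ratio averaged 1.197 ± 0.0291 in the *cat-1* RNAi libraries, 1.21 ± 0.0755 in the *cat-2* RNAi libraries and 1.18 ± 0.0174 in EV (SD, n = 4 each), with the highest value again in *cat-2* RNAi 2. The ranges of the 3 groups overlap.

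The first comparison asks what RNAi against the dopamine packaging gene does to these mRNAs. In the libraries labelled *cat-1* RNAi none of the 35 genes passed the test against EV. With limma over all 13161 tested genes, 0 of 35 passed an adjusted p of 0.05, where 0% of all tested genes did, and 0 of 35 had an unadjusted p under 0.05 in either direction, where 5.94% of all tested genes did (3.45% higher and 2.49% lower). voom on the recovered reads gave the same counts for the members, 0 and 0, where 5.52% of all tested genes had an unadjusted p under 0.05. The estimates were small and mostly negative. The median log2 fold change was -0.042 over members and 0.0039 over all tested genes, with 27 of 35 below 0 and 8 above, where 51.9% of all tested genes were above 0. In RNA of whole worms, fewer germ cells and less RNA per germ cell cannot be told apart. The 95% interval lay within 1.2-fold in either direction for 34 of the 35, *fbf-2*, the lowest of the set, being the exception (log2 fold change -0.14, SE 0.11, 95% interval -0.38 to 0.092, adjusted p = 0.892).

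By role, all 7 CCCH zinc finger genes, all 5 genes with STAR, KH or RRM domains and 8 of the 9 PUF and partner genes had estimates below 0, with medians of -0.048, -0.042 and -0.052, and 4 of the 7 P granule genes were above 0, with a median of 0.0050 (log2 fold changes). The CCCH and STAR, KH or RRM counts were the same under the other scalings. PUF and partner genes were at 9 of 9 below 0 under median-of-ratios and quantile scaling, but at 6 of 9 without *cat-1* RNAi library 1. P granule genes had 2 of 7 above 0 under median-of-ratios scaling and 1 to 5 of 7 when 1 library was left out. No member of any role passed the test, and no member had all 4 *cat-1* RNAi libraries on one side of all 4 EV libraries, where 1.92% of all tested genes were higher in that way and 1.65% lower.

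The 6 members with the smallest p came from 4 roles. For *car-1*, which averaged 711 ± 57.3 RPKM in the *cat-1* RNAi libraries and 758 ± 21.9 RPKM in EV (SD, n = 4 each), limma gave log2 fold change -0.10, SE 0.053, 95% interval -0.21 to 0.018, adjusted p = 0.846. *puf-6* had 129, 128, 162 and 138 RPKM in the *cat-1* RNAi libraries, against 157, 144, 151 and 145 RPKM in the EV libraries (log2 fold change -0.11, SE 0.067, 95% interval -0.25 to 0.038, adjusted p = 0.874). Its *cat-1* RNAi library 3 was the highest of all 12 libraries and the other 3 were below every EV library. *pos-1* averaged 1087 ± 51.9 RPKM in the *cat-1* RNAi libraries and 1136 ± 32.2 RPKM in EV (log2 fold change -0.065, SE 0.043, 95% interval -0.16 to 0.028, adjusted p = 0.883). *mex-5* averaged 509.5 ± 21.9 RPKM in the *cat-1* RNAi libraries and 530.0 ± 9.49 RPKM in EV (log2 fold change -0.058, SE 0.039, 95% interval -0.14 to 0.027, adjusted p = 0.883). For both CCCH genes the groups overlap. *larp-1* had 136, 124, 122 and 134 RPKM in the *cat-1* RNAi libraries, against 124, 119.9, 120.3 and 128 RPKM in the EV libraries (log2 fold change 0.066, SE 0.047, 95% interval -0.035 to 0.17, adjusted p = 0.889), and *deps-1* had 149.7, 151.8, 159 and 153 RPKM in the *cat-1* RNAi libraries, against 158, 153, 164 and 160.5 RPKM in the EV libraries (log2 fold change -0.050, SE 0.037, 95% interval -0.13 to 0.029, adjusted p = 0.890). The groups overlap for both.

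*cat-1* RNAi libraries 1 and 2 held the lowest value of the 12 libraries for 8 and 9 members, and library 3 held the highest for 6. Without library 3 the members' median was -0.067 and 5 of 35 had an unadjusted p under 0.05, where 9.23% of all tested genes did, and without library 1 the median was -0.028. No member passed an adjusted p of 0.05 in either case. Single values moved by over 1.5 times as well. *puf-6* was at -0.18 without library 3 and -0.070 without library 2, and without library 2 *car-1* was at -0.060 and *mex-5* at -0.033. *pos-1* was at -0.036 without library 1 and -0.0081 with quantile normalization, and *larp-1* at 0.040 without library 1.

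**Figure D2:**
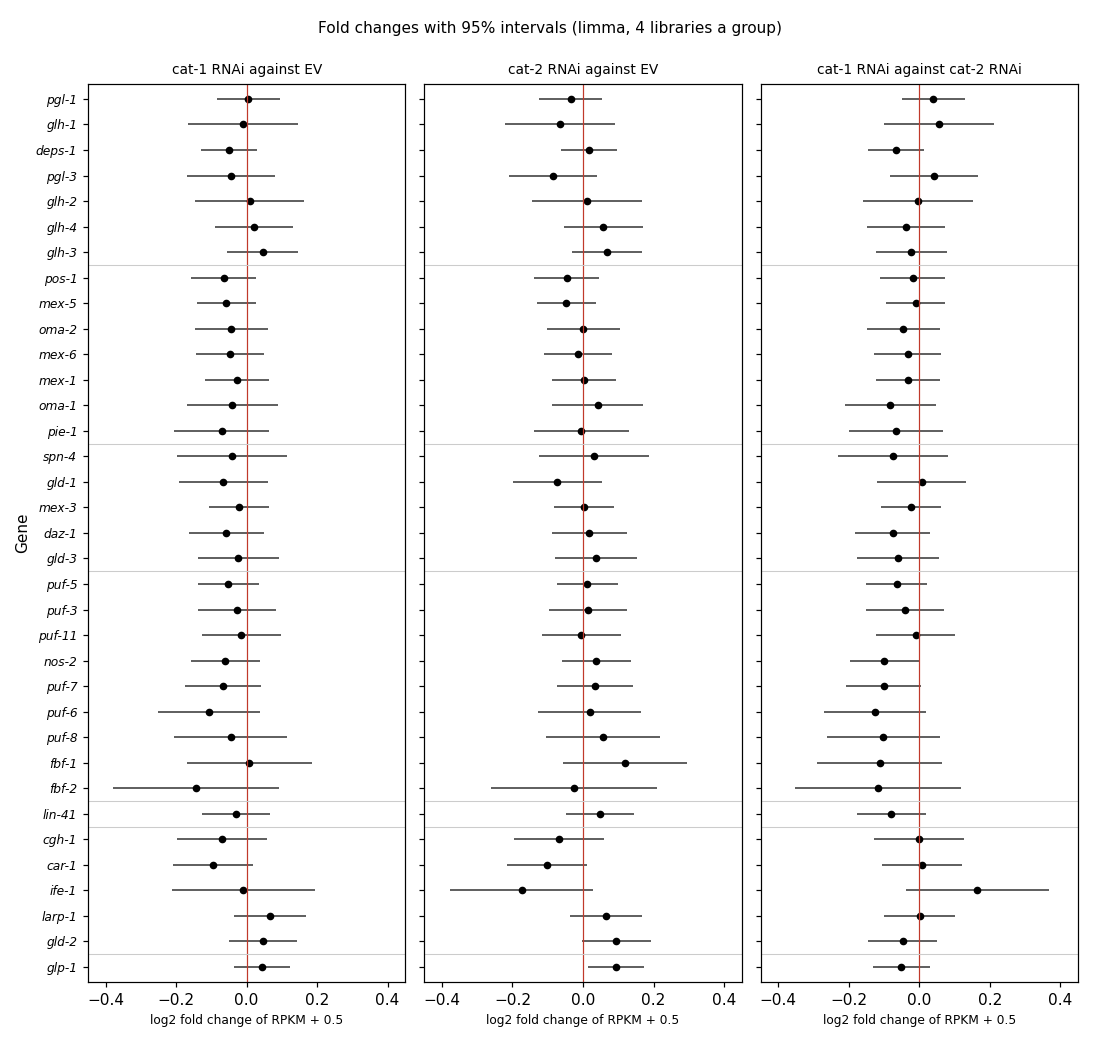
log2 fold changes of RPKM + 0.5 for the 35 genes in the 3 comparisons, with 1 point per gene, bars for the 95% limma interval (4 libraries a group), and genes grouped by role as in the plot of levels. Nearly all bars cross 0. The exceptions are *glp-1* in *cat-2* RNAi against EV and *nos-2* in *cat-1* RNAi against *cat-2* RNAi, and neither passed an adjusted p of 0.05.

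The second comparison asks the same of RNAi against the dopamine synthesis gene, with the same EV libraries as the first. In the libraries labelled *cat-2* RNAi, 0 of 35 genes passed an adjusted p of 0.05 with limma, where 0.0304% of all tested genes did (4 of 13161), and 1 of 35 had an unadjusted p under 0.05, in the higher direction, where 8.84% of all tested genes did (4.89% higher and 3.95% lower). voom on the recovered reads gave 0 and 3, where 8.85% of all tested genes had an unadjusted p under 0.05. The median log2 fold change of the members, 0.012, was next to that of all tested genes, 0.011, with 22 members above 0 and 13 below, where 54% of all tested genes were above 0. Scaling by the median of ratios gave 16 above and 19 below, quantile normalization 28 above and 7 below, and leaving out *cat-2* RNAi library 2 gave 15 above and 20 below. The 95% interval lay within 1.2-fold for 33 of the 35. The exceptions were *ife-1* and *fbf-1*. The count at an unadjusted p under 0.05 was 3 without *cat-2* RNAi library 1 or 2, where 9.44% and 7.92% of all tested genes were, 2 without *cat-2* RNAi library 3 (13.1%), *cat-1* RNAi library 3 (9.14%) or EV library 4 (6.29%), and 0 without EV library 3 (6.49%). No member passed the adjusted p in these fits. By role, 3 of 7 CCCH genes and 4 of 5 genes with STAR, KH or RRM domains were above 0. These counts turned with the settings, to 0 of 7 and 0 of 5 without *cat-2* RNAi library 2, 1 of 7 and 0 of 5 with library weights, 1 of 7 and 3 of 5 under median-of-ratios scaling and 7 of 7 and 4 of 5 with quantile normalization.

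The smallest p was that of the Notch receptor gene. *glp-1* had 87.8, 91.7, 84.6 and 88.1 RPKM in the *cat-2* RNAi libraries, against 84.4, 82.6, 80.3 and 82.5 RPKM in the EV libraries. Each *cat-2* RNAi library was above each EV library, by little (log2 fold change 0.094, SE 0.037, 95% interval 0.014 to 0.17, adjusted p = 0.519). Without *cat-2* RNAi library 2 the log2 fold change was 0.075, with an adjusted p of 0.634. Such separation was found for 1 member in the higher direction, where 3.03% of all tested genes showed it, and for 1 in the lower direction, where 2.42% did. The lower one was *car-1*, at 706 ± 15.3 RPKM in the *cat-2* RNAi libraries and 758 ± 21.9 RPKM in EV (SD, n = 4 each; log2 fold change -0.10, SE 0.053, 95% interval -0.22 to 0.011, adjusted p = 0.591), and at a log2 fold change of -0.043 with quantile normalization.

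*gld-2*, the poly(A) polymerase gene, had 47.2, 52.5, 48.7 and 50.2 RPKM in the *cat-2* RNAi libraries, against 46.7, 45.1, 45.3 and 48.6 RPKM in the EV libraries (log2 fold change 0.095, SE 0.045, 95% interval -0.0025 to 0.19, adjusted p = 0.568), and the exons of its annotation overlap *klu-2* on the other strand. *glh-3* had 37.8, 38.7, 40.3 and 35.5 RPKM in the *cat-2* RNAi libraries, against 36.3, 35.3, 36.5 and 36.98 RPKM in the EV libraries (log2 fold change 0.068, SE 0.047, 95% interval -0.033 to 0.17, adjusted p = 0.682). In both genes the groups overlap, and *glh-3* was at 0.040 without *cat-2* RNAi library 3 and 0.042 with library weights. The eIF4E gene *ife-1* had 199.8, 138, 205 and 187 RPKM in the *cat-2* RNAi libraries, against 202, 201, 203 and 206 RPKM in the EV libraries (log2 fold change -0.17, SE 0.094, 95% interval -0.38 to 0.030, adjusted p = 0.601). Most of that estimate came from library 2, since it was -0.045 without it (adjusted p = 0.7997) and -0.10 with library weights. *pgl-3* was alike, with 135, 112.8, 134 and 127 RPKM in the *cat-2* RNAi libraries, against 134, 131, 136 and 138 RPKM in the EV libraries (log2 fold change -0.086, SE 0.058, 95% interval -0.21 to 0.039, adjusted p = 0.673) and -0.030 without library 2 (adjusted p = 0.895).

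The third comparison sets the RNAi treatments against each other and so shares libraries with the first 2. In *cat-1* RNAi against *cat-2* RNAi libraries, 0 of 35 passed an adjusted p of 0.05 with limma, where 0% of all tested genes did, and 1 of 35 had an unadjusted p under 0.05, in the lower direction, where 6.44% did (3.16% higher and 3.28% lower). voom on the recovered reads gave 0 and 2, where 6.28% of all tested genes had an unadjusted p under 0.05. The median log2 fold change was -0.041 over members and -0.0037 over all tested genes, with 7 members above 0 and 28 below, where 48.5% of all tested genes were above 0. Without *cat-2* RNAi library 2 the members' median was -0.015. No member separated the groups, where 1.23% of all tested genes were higher in every library and 1.95% lower. The interval lay within 1.2-fold for 31 of the 35, the exceptions being *puf-6*, *ife-1*, *fbf-1* and *fbf-2*. The count at an unadjusted p under 0.05 was 6 of 35 without *cat-1* RNAi library 3 (6.88% of all tested genes), 5 without *cat-2* RNAi library 3 (7.92%), 1 without *cat-1* RNAi library 1 (6.18%) and 0 without any other single library, *cat-2* RNAi library 2 included, as well as with the replicate block, with these 2 groups alone or with an untrended, non-robust variance, with 0 past an adjusted p of 0.05 in each. All 9 PUF and partner genes were below 0 (median -0.10), as were all 7 CCCH genes (median -0.033). Without *cat-2* RNAi library 2 these were 9 of 9 (median -0.076) and 5 of 7 (median -0.0019). Over the fits without 1 other library they were 7 to 9 of 9 and 6 to 7 of 7. The other roles were mixed. Genes with STAR, KH or RRM domains had 4 of 5 below 0, and 2 of 5 without *cat-2* RNAi library 2. P granule genes had 4 of 7 below 0, 6 of 7 without that library and 1 of 7 without *cat-2* RNAi library 3. The effectors of translation and storage had 2 of 5 below 0.

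The maternal Nanos gene *nos-2* had the smallest p, with 206, 195, 204 and 188 RPKM in the *cat-1* RNAi libraries, against 209, 230.0, 203 and 209 RPKM in the *cat-2* RNAi libraries (log2 fold change -0.10, SE 0.046, 95% interval -0.20 to -0.0011, adjusted p = 0.775). The groups overlap, and without *cat-2* RNAi library 2 the log2 fold change was -0.061. Its exons overlap those of *him-14* on the other strand. *puf-7* had 186, 177, 212 and 190.1 RPKM in the *cat-1* RNAi libraries, against 202, 213, 200.4 and 203 RPKM in the *cat-2* RNAi libraries (log2 fold change -0.10, SE 0.050, 95% interval -0.21 to 0.0056, adjusted p = 0.799), and *puf-6*, close to it in sequence, had 129, 128, 162 and 138 RPKM in the *cat-1* RNAi libraries, against 153, 156, 139 and 157 RPKM in the *cat-2* RNAi libraries (log2 fold change -0.13, SE 0.067, 95% interval -0.27 to 0.019, adjusted p = 0.824). Since these 2 genes may exchange reads, they are not independent observations. Their values moved with single *cat-1* RNAi libraries, to -0.065 for *puf-7* without library 2 and -0.20 for *puf-6* without library 3. *deps-1* had 149.7, 151.8, 159 and 153 RPKM in the *cat-1* RNAi libraries, against 163, 166, 157 and 157 RPKM in the *cat-2* RNAi libraries (log2 fold change -0.067, SE 0.037, 95% interval -0.15 to 0.012, adjusted p = 0.825). *lin-41* had 103, 98.6, 114 and 111 RPKM in the *cat-1* RNAi libraries, against 110.3, 116, 109.8 and 115 RPKM in the *cat-2* RNAi libraries (log2 fold change -0.079, SE 0.045, 95% interval -0.18 to 0.018, adjusted p = 0.825), and -0.042 without *cat-1* RNAi library 2. For all 4 of these genes the groups overlap. *ife-1* had 192, 202, 212 and 202 RPKM in the *cat-1* RNAi libraries, against 199.8, 138, 205 and 187 RPKM in the *cat-2* RNAi libraries (log2 fold change 0.16, SE 0.094, 95% interval -0.039 to 0.37, adjusted p = 0.825), with overlap as well. Without *cat-2* RNAi library 2 the *ife-1* value was 0.036, and 0.090 with library weights.

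*cat-2* RNAi library 2 departed from its group in many members at once. It held the highest value of all 12 libraries for 19 members and the lowest for 6, together 71.4% of the members, where it held either extreme for 36.8% of all tested genes. The 6 lowest were the P granule genes *pgl-1*, *pgl-3*, *glh-1* and *glh-2*, the cap-binding gene *ife-1* and the PUF gene *puf-11*. The 19 highest included all 5 genes with STAR, KH or RRM domains, 5 of the 7 CCCH genes (*oma-1*, *oma-2*, *mex-1*, *mex-6* and *pie-1*) and *cgh-1*, *gld-2*, *larp-1*, *puf-7*, *puf-8*, *nos-2*, *lin-41*, *deps-1* and *glp-1*.

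On the log2(RPKM + 0.5) scale the library was -0.51 from the mean of the other 3 *cat-2* RNAi libraries for *ife-1*, -0.35 for *glh-1*, -0.30 for *glh-2* and -0.22 for *pgl-3*, and 0.37 for *spn-4*, 0.35 for *puf-8*, 0.29 for *pie-1*, 0.26 for *oma-1* and 0.23 for *cgh-1*. Only *ife-1* in it lay farther from the rest of its group than *fbf-2* did in *cat-1* RNAi library 3, at 0.43, over all 35 genes and 12 libraries. The median distance was 0.067 over members and 0.045 over all tested genes. By summed level, the P granule genes were at 863 RPKM in it, below the 892 to 988 RPKM of the other 11 libraries. The genes with STAR, KH or RRM domains were at 1939 RPKM, above the 1572 to 1734 RPKM of the others, and the CCCH genes at 3314 RPKM, above 2973 to 3256 RPKM.

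Markers of cell types in this library were as follows, as summed RPKM. Neuronal markers (9 genes) were at 363 in it, against 312 to 337 in the other 11 libraries, and meiotic prophase (20 genes) at 1119 against 999 to 1086. The list set up for the somatic gonad (12 genes) was at 435 against 407 to 428, so these 3 lists had their highest value there. Single genes weigh on such sums. In the neuronal list *snb-1* averaged 255 RPKM over all libraries. In the gonad list *inx-14* and *inx-22* averaged 90.6 and 85.1 RPKM, and whether their RNA was somatic was not tested. Oocyte and yolk uptake markers were at 5191 against 4925 to 5498, sperm markers at 26.8 against 23.4 to 56.5, zygotic embryo markers (19 genes) at 209.6 against 168 to 222, intestine (10 genes) at 6709.9 against 5836 to 6972, hypodermis (8 genes) at 1000.4 against 999 to 1390.3, and body wall muscle (8 genes) at 408 against 386 to 692, all within the range of the others, in which the highest muscle value is that of EV library 2 and the next is 438. The part of these cells or of RNA quality in the values of the library was not tested.

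**Figure D3:**
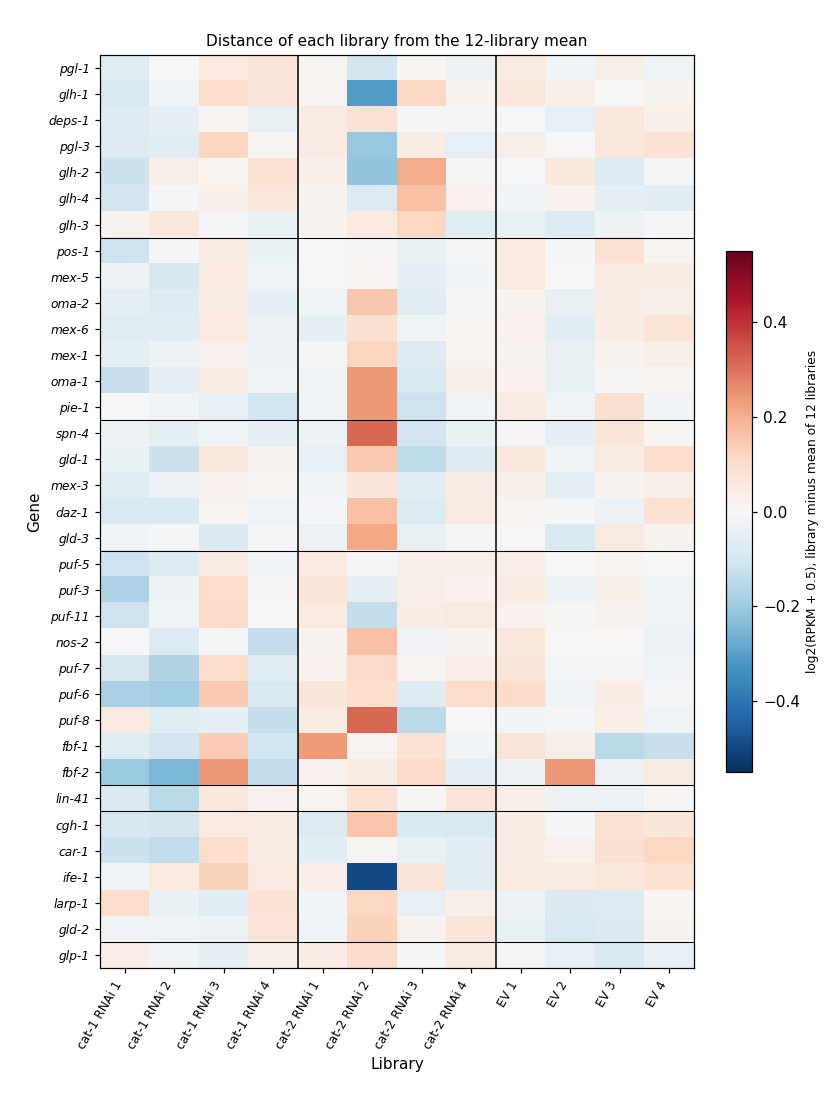
Distance of each library from the mean of 12 libraries for the 35 genes, in log2(RPKM + 0.5), with libraries as columns (*cat-1* RNAi, *cat-2* RNAi, EV), genes as rows grouped by role, red above and blue below the mean. The column of *cat-2* RNAi 2 holds the deepest blue, in *ife-1* and *glh-1*, and the deepest red, in *spn-4* and *puf-8*, and *cat-1* RNAi 1 and 2 are pale blue in most rows.

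**Figure D4:**
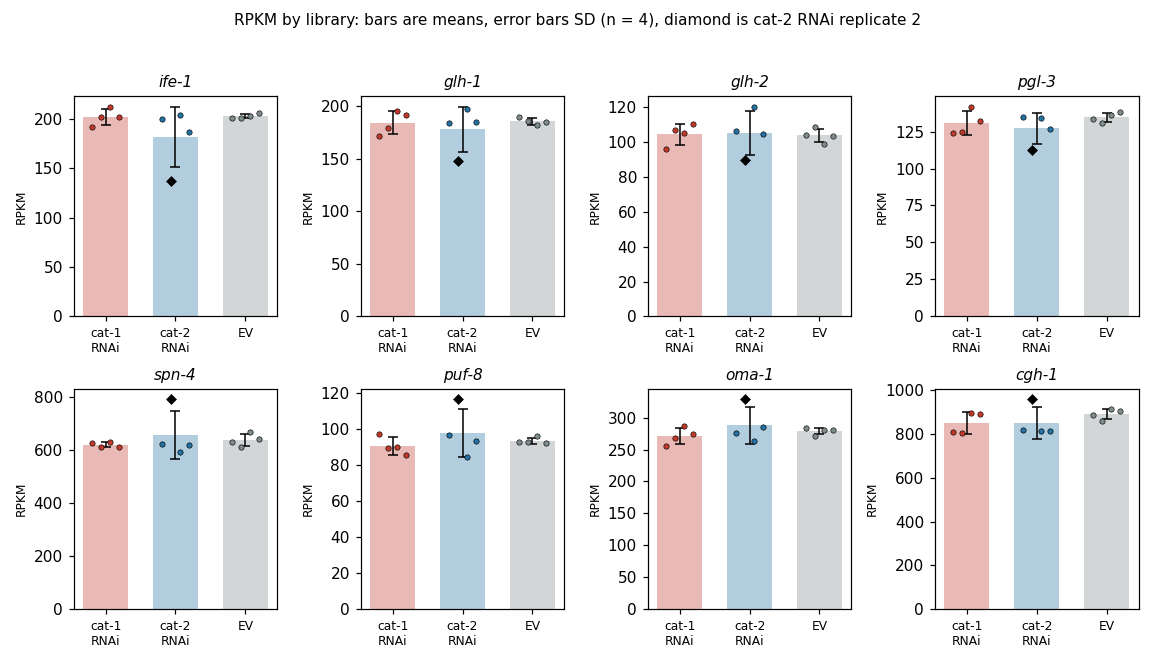
RPKM of 8 genes by library, with bars for group means, error bars for the SD (n = 4) and a black diamond for *cat-2* RNAi replicate 2, from axes that start at 0. The diamond lies below all other points for *ife-1*, *glh-1*, *glh-2* and *pgl-3* and above all other points for *spn-4*, *puf-8*, *oma-1* and *cgh-1*.

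Genes that work beside these gave no call either. Of 21 other germ granule genes tested, 40 other germline mRNA regulators and 19 genes for polarity and cell fate proteins that the oocyte supplies, 0 passed an adjusted p of 0.05 in any of the 3 comparisons with limma. Their median log2 fold changes in *cat-1* RNAi against EV were 0.0026, -8.03e-05 and 0.0092, and in *cat-2* RNAi against EV 0.022, 0.030 and 0.036. In *cat-1* RNAi against *cat-2* RNAi they were -0.019, 0.0018 and -0.022. At an unadjusted p under 0.05 they held 0, 2 and 0 genes for *cat-1* RNAi against EV, 2, 4 and 2 for *cat-2* RNAi against EV, and 1, 3 and 0 for *cat-1* RNAi against *cat-2* RNAi, where 5.94%, 8.84% and 6.44% of all tested genes were in these comparisons. Over the 3 lists together, voom on the recovered reads gave 0, 0 and 0 past the adjusted p in these comparisons, and 2, 9 and 6 at an unadjusted p under 0.05, each of 80 genes, where 5.52%, 8.85% and 6.28% of all tested genes were. The oocyte, meiotic prophase and sperm markers had medians of -0.028, -0.031 and -0.089 in *cat-1* RNAi against EV. These were 0.015, 0.017 and -0.38 in *cat-2* RNAi against EV, and -0.045, -0.054 and 0.32 in *cat-1* RNAi against *cat-2* RNAi.

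Among the related genes with the smallest p, *atx-2*, the ataxin-2 homologue, averaged 92.3 ± 5.72 RPKM in the *cat-1* RNAi libraries and 83.5 ± 4.79 RPKM in EV (log2 fold change 0.14, SE 0.058, adjusted p = 0.819). *tsn-1*, a Tudor nuclease, averaged 172 ± 5.49 RPKM in the *cat-2* RNAi libraries and 189 ± 5.48 RPKM in EV (log2 fold change -0.13, SE 0.047, adjusted p = 0.494). The decapping enzyme gene *dcap-2* averaged 63.8 ± 4.75 RPKM in the *cat-2* RNAi libraries and 58.9 ± 0.857 RPKM in EV (log2 fold change 0.11, SE 0.048, adjusted p = 0.555), and *par-3*, an anterior polarity gene, averaged 103 ± 5.11 RPKM in the *cat-2* RNAi libraries and 95.8 ± 1.54 RPKM in EV (log2 fold change 0.11, SE 0.041, adjusted p = 0.509). *rnp-8*, whose protein is a partner of the GLD-2 polymerase, averaged 97.1 ± 5.22 RPKM in the *cat-1* RNAi libraries and 106 ± 5.04 RPKM in the *cat-2* RNAi libraries (log2 fold change -0.13, SE 0.045, adjusted p = 0.699).

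By the annotation of genome build WBcel235, the build the authors call ce11, the highest member *pos-1* lies on chromosome V from 8414086 to 8415254, *cgh-1* on chromosome III from 7495320 to 7497832, *ife-1* on chromosome III from 13343417 to 13344618 and *glp-1* on chromosome III from 9092241 to 9099698. For 9 of the 35, exons overlap exons of another protein-coding gene, and in 8 of these the partner is on the other strand. They are *deps-1*, *mex-1*, *pie-1*, *spn-4*, *fbf-1*, *nos-2*, *gld-2* and *glp-1*, with *ife-1* overlapping *dro-1* on its own strand. The strand setting of the counting is not given in the sources used here, so reads of these 9 may include reads of the partner.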

How the data were processed

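Whole-worm, poly(A)-selected, paired-end RNA-seq was performed on 12 libraries. The authors processed the reads with CLC Genomics Workbench on genome build ce11 and deposited 1 RPKM value per feature and library, with mapping, strand and multiple-mapping settings not given in the sources used here. Beside these, the deposited table holds the authors' group means and the p-value and FDR p-value columns of their own comparisons, none of which were used.

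RPKM values were taken as deposited. Read numbers were recovered from the RPKM steps, which gave whole reads for 100% of the 20423 features above 0 (tolerance 0.0001 reads). Genes that reached 0.5 RPKM in 4 or more libraries were tested on log2(RPKM + 0.5) with limma 3.58.1 in R 4.3.3, with trended and robust variances, all 3 groups in 1 model, no replicate term and Benjamini-Hochberg adjustment over all 13161 tested genes. A fold change on this scale understates that of low genes. Summaries were made with pandas 2.3.3 and numpy 2.4.6 under Python 3.11.15, and plots with matplotlib 3.10.9.

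Over 18 pairs of libraries of 1 group, the chi-square per gene was 3.25 to 38.6, where counting error alone gives 1, so no library was counted as a repeat of another. Where a shared replicate number comes from is not stated. With all 3 groups in 1 model, the p-values rest on a variance per gene pooled over the 4 labelled biological replicates of each group. A library far from its group can therefore widen the intervals of a comparison that leaves its group out. *ife-1* had an SE of 0.094 in each comparison. Its SD was 8.14 RPKM in the *cat-1* RNAi libraries, 2.31 in EV and 30.6 in the *cat-2* RNAi libraries. In *cat-1* RNAi against EV, 5.94% of all tested genes had an unadjusted p under 0.05, and 7.58% without *cat-2* RNAi library 2. No member did in either fit.

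The members and the lists of related and marker genes were chosen with earlier results of these data known. Every member could be named with its level, and values per library and full statistics were given for the 6 members with the smallest p in each comparison and for the highest members of each role. From the related lists, genes among the 4 smallest p were named. Alternatives comprised 11 settings (pseudocount, filter, scaling, weights, variance model, groups in the fit, replicate block, voom on recovered reads) and leaving out each of the 12 libraries.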

Additional observations from a re-analysis of the deposited data

Results flagged for a closer look

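In 10 of 105 sets of 4 libraries (35 genes in 3 groups), 1 library lay far from the other 3 relative to the range of the group. Independent sets would give about 1 in 20, or 5.25 of 105, but these sets share the same 12 libraries. The share over all tested genes was not determined, so the count is a description only. Of the 10, 4 were in *cat-2* RNAi library 2, which held the highest or lowest value for 36.8% of all tested genes. In it *spn-4* was at 791 RPKM, against 591 to 623 RPKM in the other 3 *cat-2* RNAi libraries, *cgh-1* at 959.8 RPKM against 813 to 820.3 RPKM, *gld-3* at 147 RPKM against 124 to 126 RPKM, and *puf-11* at 267 RPKM against 302 to 305 RPKM.

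*cat-1* RNAi library 3 held 3 more. *oma-2* was at 525 RPKM in it and at 484 to 491 RPKM in the other 3 *cat-1* RNAi libraries, *fbf-1* at 18.6 RPKM against 15.5 to 16.02 RPKM, and *gld-3* at 120.2 RPKM against 125.9 to 126.5 RPKM. *gld-2* was at 50.4 RPKM in *cat-1* RNAi library 4, against 46.9 to 47.4 RPKM in the others of its group. In EV, *mex-3* was at 298 RPKM in library 2, against 313 to 316 RPKM, and *puf-8* at 96.1 RPKM in library 3, against 92.3 to 92.9 RPKM.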

How the results depend on the processing

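The number of members past an adjusted p of 0.05 was 0 in all 3 comparisons. This held under each of the 11 settings and each of the 12 fits without 1 library. No log2 fold change of the 6 members with the smallest p in each comparison changed sign. The signs for *fbf-2* and the related genes were not followed over these fits. The smallest adjusted p of a named member in any of these fits was 0.292, for *puf-6* in *cat-1* RNAi against EV. The filter, variance model, groups in the fit and replicate block leave each fold change unchanged by construction, and bear on p-values only. Leaving out 1 library moved the members' median log2 fold change between -0.067 and -0.028 for *cat-1* RNAi against EV, between -0.016 and 0.026 for *cat-2* RNAi against EV, and between -0.056 and -0.015 for *cat-1* RNAi against *cat-2* RNAi. Quantile normalization gave medians outside these ranges, at -0.024, 0.047 and -0.071. Over those fits 0 to 5, 0 to 3 and 0 to 6 members had an unadjusted p under 0.05 in the same comparisons, where 3.86% to 9.23%, 6.29% to 13.1% and 5.09% to 7.92% of all tested genes had one. With library weights the counts were 2, 4 and 2 (all tested genes 9.83%, 11.7% and 6.97%), and with quantile normalization 0, 1 and 4 (6.56%, 8.43% and 6.61%). The cause of these shifts was not tested.

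With the replicate number as a block (replicate block), 0 members passed in all 3 comparisons. Each replicate number occurs in every group, so this balanced block cannot move the medians, which were again -0.042, 0.012 and -0.041. Correlations of deviations from group means ran between -0.058 and 0.19 for libraries of the same number. For libraries of different numbers they ran between -0.24 and 0.18. These overlapping ranges do not settle whether a shared number pairs libraries. The median SE of a member was 0.052 (log2), against 0.11 over all tested genes, which sets the size of change that 4 libraries a group resolve.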

Other observations

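By annotated position, 10 of the 35 members lie on chromosome I, 10 on II, 5 on III, 6 on IV, 4 on V and 0 on X. Of the 11535 tested genes matched to a chromosome by name (87.6% of those tested), 14.3% lie on X. The share is a description of a chosen list and was not tested. Sperm markers were lower than EV at an unadjusted p under 0.05 in 6 of 31 tested genes in the *cat-2* RNAi libraries, where 3.95% of all tested genes were, with a median log2 fold change of -0.38 and 0 past an adjusted p of 0.05, and in 0 of 31 in the *cat-1* RNAi libraries, where 2.49% were, with a median of -0.089. The highest of these genes, *ssp-10*, averaged 5.48 RPKM over the 12 libraries, and the median of the 42 found averaged 0.891 RPKM, near the 0.5 RPKM minimum for testing. Most of the list are *msp* genes of 1 family. How reads that fit more than 1 of them were assigned is not given, so they are not independent observations. The sum over the list was 56.5 RPKM in *cat-2* RNAi library 1, the highest of the 12 libraries, and 23.4 to 33.6 RPKM in the other 3 of its group.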
